A study of Mus musculus with 12 samples.

Results

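The genes described here are 10 that are known together from the state of microglia called disease-associated, led by Gpnmb and Spp1. They are Gpnmb, Spp1, Trem2, Tyrobp, Cst7, Lpl, Itgax, Lgals3, Axl and Fabp5. They were chosen by name and matched through their Ensembl identifiers. All 10 were found among the 35697 identifiers of the 2018 table and the 55637 identifiers of the 2022 table, and all 10 passed the expression filter in both. The choice was made with differences of these data known, so their fold changes are given as a description, with their errors and no p-value.

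The study asked what controlled cortical impact, a mechanical blow to the exposed cortex, does to gene expression in mouse brain, and what zileuton, an inhibitor of the enzyme 5-lipoxygenase, changes after it. All animals are labelled as adult male C57BL/6J mice with no engineered allele. In the batch of 2018, 3 sham mice, which had the surgery without the blow, were set against 3 TBI mice. In the batch of 2022, 3 injured mice named TBI_7d were set against 3 injured mice given zileuton daily into the abdomen at 10 mg per kg, dissolved in corn oil. The design text places the tissue beside the contusion at 7 days. The source labels of the zileuton mice give 7, 8 and 9 days, while their library names give 7. The labels do not say whether TBI_7d mice received corn oil. Columns of 2022 carry numbers that cannot be tied to single labels, so those mice are called A, B and C here.

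Microglia are the resident macrophages of the brain. When they meet dying cells, myelin debris or amyloid they can pass into the disease-associated state, in which genes for lysosomal digestion, lipid handling and adhesion are turned up. The lipid-sensing receptor TREM2 signals through its adaptor TYROBP and is needed for the full state in mouse models. Gpnmb, a membrane glycoprotein of lysosomes, and Spp1, which encodes the secreted protein osteopontin, are also made by macrophages that enter injured tissue from the blood. Bulk tissue holds all of these cells, so more cells of a type and more RNA per cell cannot be told apart in any value below.

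Library totals ran from 42929862 to 48684674 counts in 2018 and from 27845562 to 35453257 in 2022. Levels below are counts per 1000000 of the TMM-adjusted library size (CPM). As a check of the tissue, the microglial markers P2ry12 and Tmem119 were detected in every group, with means of 38.6 ± 2.46 and 32.2 ± 3.30 CPM (SD, n = 3) in sham mice. The 2018 libraries stand apart in a further way. Xist, the RNA of the inactive X chromosome, had 856 to 1155 counts in them beside 2518 to 3008 counts of the Y-linked gene Ddx3y, whereas the 2022 libraries had 1 to 6 counts of Xist. The labels give males in both. The Xist counts were present in sham and TBI libraries alike. Whether each 2018 library holds RNA of 1 male mouse, as labelled, could not be settled from the files, and the part of this in the results was not tested. In TBI replicate 3 the summed CPM of 8 neutrophil markers was 64.4, against 16.6 and 26.6 in the other TBI mice, and that of 5 fibroblast and meningeal markers was 754 against 429 and 182. The log2 fold changes of the members without that mouse are given beside their values.

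All 10 genes were higher in every TBI mouse than in every sham mouse. The rises ranged from 1.89-fold for Fabp5 to 115-fold for Spp1. By edgeR's quasi-likelihood test all 10 passed an adjusted p-value of 0.05 in the higher direction, where 16.8% of the 19536 genes tested did so and 28.0% passed in either direction. The groups did not overlap in that direction for 24.6% of the genes tested. These shares are given as background and nothing is read from the count, since the genes were chosen with the difference known. The median log2 fold change of the 10 genes was 4.03, beside 0.02 over all genes tested. Without TBI replicate 3 the median was 3.71.

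**Figure D1:**
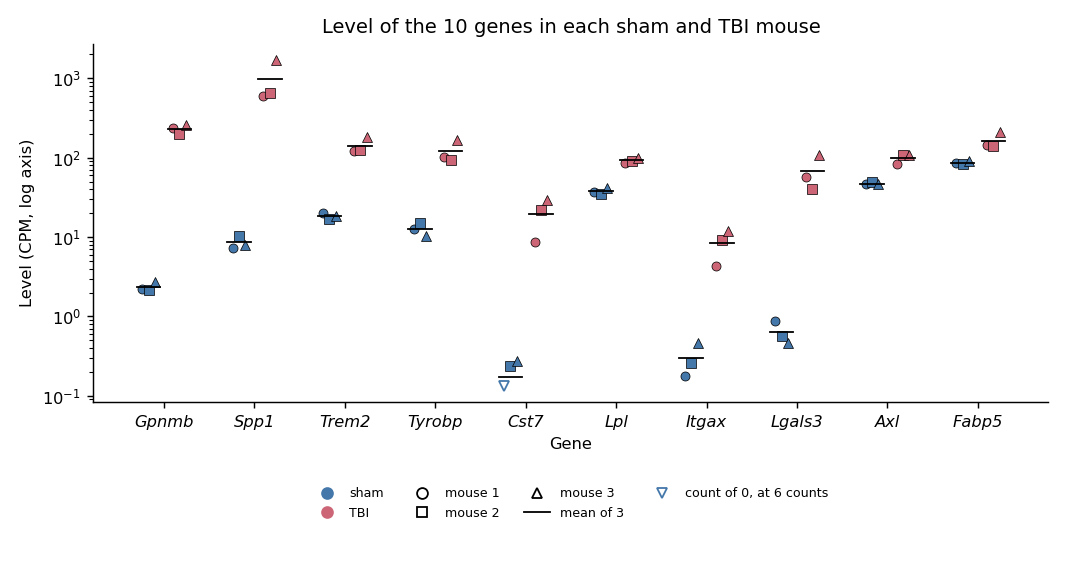
Level of each gene in CPM on a log axis in the 3 sham mice (blue) and the 3 TBI mice (red), with marker shapes for the mice and a bar for the mean of 3. The groups are separate for every gene, TBI mouse 3 is the highest of its group in all 10, and the open triangle marks the sham mouse with 0 counts of Cst7, drawn at the level of 6 counts.

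Gpnmb, Spp1 and Lgals3 went from low levels to high ones. Spp1, whose product osteopontin binds integrins and CD44, stood at 7.35, 10.4 and 8.02 CPM in sham mice and at 604, 656 and 1691 CPM after TBI. TBI mouse 3 was 2.80 times the lowest TBI mouse, and even that lowest mouse lay far above all sham mice. The log2 fold change was 6.84 (SE 0.46), with a 95% confidence interval from 5.79 to 7.88. Without TBI replicate 3 it was 6.20. Spp1 shares 309 exon bases with the annotated transcript Gm42793 on the same strand, so reads from that stretch cannot be assigned to either with certainty.

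Gpnmb had 2.20, 2.18 and 2.71 CPM in sham mice and 235, 202 and 256 CPM in TBI mice. Its log2 fold change of 6.61 (SE 0.14) was close to that of Spp1, and the TBI mice were far more alike. Without TBI replicate 3 the log2 fold change of Gpnmb was 6.53. The coefficient of variation over the 3 TBI mice was 11.8% for Gpnmb and 62.3% for Spp1. Lgals3, which encodes the sugar-binding protein galectin-3 that gathers at damaged lysosomes, went from 0.866, 0.562 and 0.463 CPM to 57.7, 40.1 and 107 CPM. All sham mice were below 1 CPM and all TBI mice far above it, with a log2 fold change of 6.76 (SE 0.44), and 6.28 without TBI replicate 3.

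The stretches before the start sites of Gpnmb and Spp1 are shown because these genes rose by like amounts from low levels. Cst7 and Lgals3 did so too, with log2 fold changes of 6.82 and 6.76. Their windows hold no match to the letters searched and are not printed. The stretches of Itgax and Trem2 follow because they are the other members beside Axl with a match. RefSeq entries on build GRCm38.p6 were found for 7 of the 10 members, with 8 windows in all, since Spp1 has 2. Tyrobp, Lpl and Fabp5 have none in that table. The 250 bases before the start site are printed 5′ to 3′, and capitals mark a match. They lie on the plus strand at chr6:49036268-49036517 for Gpnmb, chr5:104434861-104435110 for Spp1, chr7:128129300-128129549 for Itgax and chr17:48346151-48346400 for Trem2.
Gpnmb: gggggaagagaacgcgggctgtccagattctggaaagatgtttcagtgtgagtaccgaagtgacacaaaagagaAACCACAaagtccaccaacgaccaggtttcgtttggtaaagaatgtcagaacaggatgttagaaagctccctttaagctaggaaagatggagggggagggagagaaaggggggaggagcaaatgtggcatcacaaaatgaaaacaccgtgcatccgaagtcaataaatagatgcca
Spp1: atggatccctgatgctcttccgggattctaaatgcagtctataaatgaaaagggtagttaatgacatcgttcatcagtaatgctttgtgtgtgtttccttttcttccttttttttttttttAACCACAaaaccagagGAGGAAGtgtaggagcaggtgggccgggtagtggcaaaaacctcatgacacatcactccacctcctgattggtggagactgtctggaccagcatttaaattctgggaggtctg
Itgax: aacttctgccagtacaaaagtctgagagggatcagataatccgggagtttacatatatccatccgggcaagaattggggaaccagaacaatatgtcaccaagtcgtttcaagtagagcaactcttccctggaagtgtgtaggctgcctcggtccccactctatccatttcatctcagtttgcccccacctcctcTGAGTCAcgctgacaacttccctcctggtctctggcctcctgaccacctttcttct
Trem2: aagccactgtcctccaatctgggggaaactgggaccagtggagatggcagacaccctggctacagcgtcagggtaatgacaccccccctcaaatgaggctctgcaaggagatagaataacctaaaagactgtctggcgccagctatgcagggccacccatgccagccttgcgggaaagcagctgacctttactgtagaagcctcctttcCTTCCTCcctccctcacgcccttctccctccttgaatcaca

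In Gpnmb and in Spp1 the capitals AACCACA, letters of the RUNX motif, begin 176 and 129 bases before the start. The reverse complement TGTGGTT was searched as well. At least 1 match was present in 2 of the 8 member windows and in 5.27% of all 32851 RefSeq windows of 300 bases, which reach 50 bases past the start. In Spp1 the letters GAGGAAG of a PU.1-like motif begin 113 bases before the start, and their reverse complement CTTCCTC begins 41 bases before that of Trem2. That motif was in 3 of 8 member windows, the third being that of Axl, and in 13.6% of all windows. The AP-1 motif, TGACTCA or TGAGTCA, begins 56 bases before the start of Itgax and 9 bases into the transcribed part of Gpnmb, and was in 2 of 8 against 5.20% of all. The E-box CACGTG, in 7.15% of all windows, and CATGTG or CACATG, in 14.2%, were in none of the 8. The motifs were chosen after these sequences had been seen, no match overlaps another, and a match is a description of letters only.

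The receptor gene Trem2 and its adaptor gene Tyrobp rose by amounts close to each other. Trem2 rose from 20.2, 17.0 and 18.2 CPM in sham mice to 120, 124 and 182 CPM. Tyrobp, which carries the signal of TREM2 and of other receptors through its activation motif, rose from 12.8, 15.0 and 10.3 to 103, 92.6 and 167 CPM. The log2 fold changes were 2.95 (SE 0.17) and 3.25 (SE 0.24), with intervals that overlap, 2.57 to 3.32 for Trem2 and 2.71 to 3.79 for Tyrobp. Receptor and adaptor were both highest in TBI mouse 3, without which the log2 fold changes of Trem2 and Tyrobp were 2.73 and 2.95, and both present at more than 10 CPM in every sham mouse.

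Itgax, the integrin chain known as CD11c, was near the detection limit in sham mice with 8, 12 and 22 counts. It reached 215, 449 and 514 counts after TBI. In CPM this was 0.178, 0.259 and 0.463 against 4.37, 9.22 and 11.9, a log2 fold change of 4.81 (SE 0.47), and 4.48 for Itgax without TBI replicate 3. Axl, a receptor tyrosine kinase that recognises dying cells through the bridging protein GAS6, had a smaller fold. It stood at 46.1, 49.3 and 46.4 CPM in sham mice and at 83.4, 108 and 109 CPM in TBI mice. The groups were separate, with a log2 fold change of 1.08 (SE 0.11), and 1.02 for Axl without TBI replicate 3.

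The lysosomal and lipid genes split. Cst7 encodes cystatin F, an inhibitor of lysosomal cysteine proteases. The sham mice gave 0, 11 and 13 counts of it, and the TBI mice 421, 1059 and 1256. A count of 0 allows up to 0.133 CPM in that library when 6 counts are taken as the limit, since 62.3% to 64.4% of the counts from 1 to 20 in these libraries were even and a read pair may have been counted as 2, and this limit covers counting error only. The log2 fold change of 6.82 carried the largest error of the 10 (SE 0.68, interval 5.27 to 8.37). Without TBI replicate 3 that of Cst7 was 6.44, and without sham replicate 1, the library at 0, it was 6.25.

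Lpl, lipoprotein lipase, which frees fatty acids from circulating lipoproteins, rose from 37.0, 35.4 and 41.6 CPM to 86.0, 91.3 and 100.1 CPM. This was a log2 fold change of 1.28 (SE 0.09), the most precise of the 10, and 1.22 for Lpl without TBI replicate 3. Fabp5, a carrier of fatty acids inside the cell, stood at 86.6, 82.7 and 91.7 CPM in sham mice and at 144, 140 and 208 CPM after TBI. Its log2 fold change of 0.92 (SE 0.14) was the smallest of the 10, and 0.71 without TBI replicate 3. Fabp5 also has an annotated pseudogene that could share reads with it.

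Per length the order of the genes differed between sham and TBI mice. In sham mice Fabp5 led with 23.9 ± 1.27 FPKM (SD, n = 3), followed by Tyrobp with 18.7 ± 3.50 and Axl with 9.22 ± 0.37 FPKM. Spp1 came next with 5.12 ± 0.97 FPKM. Trem2 and Lpl overlapped at 3.66 ± 0.30 and 3.56 ± 0.31 FPKM, and Gpnmb, Lgals3, Cst7 and Itgax were all below 0.5 FPKM, each overlapping the next. After TBI Spp1 led with 605 ± 369 FPKM, and Tyrobp followed with 184 ± 58.3 FPKM. Fabp5, Lgals3, Gpnmb, Trem2, Cst7 and Axl then ran from 46.8 down to 20.2 FPKM, and each of them overlapped its neighbour. Lpl with 8.98 ± 0.65 and Itgax with 1.80 ± 0.80 FPKM came last.

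The same shift shows in the sum of the 10 genes. They added up to 213 to 220 CPM in sham mice and to 1448, 1485 and 2860 CPM in TBI mice. In CPM, Fabp5 made up 38.8% to 41.7% of the sum in sham mice and 7.28% to 9.98% after TBI. Spp1 made up 3.45% to 4.88% in sham mice and 41.7%, 44.2% and 59.1% after TBI.

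Genes that mark all myeloid cells rose as well, so the 10 genes were set beside them. Of 10 pan-myeloid genes, among them Csf1r, Ctss, Aif1, Itgam and Ptprc, 9 rose and none fell, with a median log2 fold change of 2.67. The other gene, Coro1a, did not pass (log2 fold change 0.03). Their summed level was 293 to 332 CPM in sham mice and 1167, 1306 and 1672 CPM in TBI mice. The members were then expressed per 1000 CPM of this sum, a description added after the values were seen.

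Scaled in this way, the genes are described in 3 sets. The same sum, which rose after TBI, divides every gene of a library. Each ratio is therefore lower than the unscaled one, and the sets follow from the unscaled fold changes. Gpnmb stood at 6.58 to 9.25 in sham mice and at 202, 154 and 153 in TBI mice, 22.6-fold higher. Spp1, Cst7 and Lgals3 were 25.1-fold, 25.1-fold and 24.4-fold higher, and Itgax 6.19-fold. Tyrobp and Trem2 were 2.17-fold and 1.76-fold higher, with 86.3 ± 14.5 against 39.7 ± 5.21 and 102 ± 6.95 against 58.1 ± 5.98 (SD, n = 3). Lpl, Axl and Fabp5 were lower after TBI per pan-myeloid CPM, at 0.564, 0.491 and 0.431 of the sham level. The groups did not overlap for any of the 10, in these directions. The share of all genes without overlap on this scale was not counted, and the sum itself was separate between the groups. Nothing is read from the count. Leaving Coro1a out of the sum moved the log2 ratio of Trem2 from 0.82 to 0.38 and of Tyrobp from 1.12 to 0.69, and changed no sign. The list is not a count of cells, and the share of Lpl, Axl and Fabp5 RNA that comes from other cells was not tested.

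**Figure D2:**
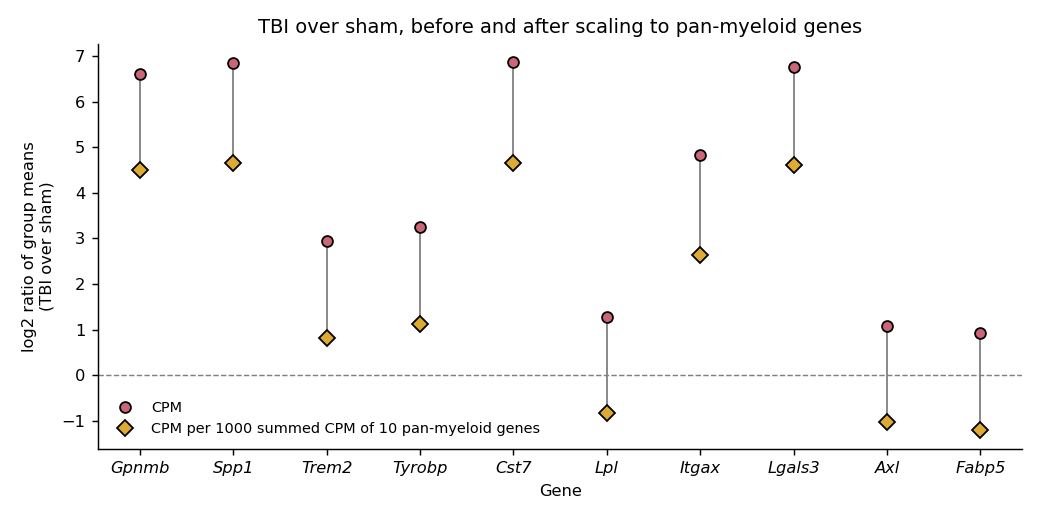
Log2 ratio of the TBI mean over the sham mean (3 mice each) for each gene, from CPM (circles) and from CPM per 1000 summed CPM of 10 pan-myeloid genes (diamonds). Every diamond lies below its circle because the sum of the 10 pan-myeloid genes rose after TBI. The diamonds of Gpnmb, Spp1, Cst7 and Lgals3 stay above 4, and those of Lpl, Axl and Fabp5 lie below 0.

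Genes that work with the 10 members were followed as lists grouped by function, drawn up with earlier results of these data known. Adjusted p-values are from edgeR over all genes tested. In a list of 32 other disease-associated microglia genes, 29 rose, 0 fell and 3 did not pass, with a median log2 fold change of 2.28. Clec7a, a receptor for fungal glucans, went from 6, 10 and 2 counts in sham mice to 1475, 1494 and 1806 counts (log2 fold change 8.01, SE 0.32, adjusted p = 2.86e-06). Apoe, the main lipid carrier of the brain, rose from 1577 ± 125 to 8474 ± 674 CPM (SD, n = 3; adjusted p = 3.51e-06). Lyz2, lysozyme of macrophages, rose by 6.44 (SE 0.33) and Ctsd, a lysosomal protease, by 2.75 (SE 0.17) on the log2 scale.

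The homeostatic genes are those of resting microglia and are known to fall in single microglia of the disease-associated state. In this tissue 13 of 16 such genes rose and 1 fell, with a median log2 fold change of 0.93. Cx3cr1, the fractalkine receptor, rose from 44.4 ± 3.46 to 167 ± 6.67 CPM (SD, n = 3; adjusted p = 3.51e-06). Tmem119 had a log2 fold change of 0.94 (SE 0.13, adjusted p = 0.0010) and P2ry12, the ADP receptor of resting microglia, 0.31 (SE 0.09, adjusted p = 0.0382). The call for P2ry12 was lost under 10 of the alternatives, with DESeq2's size factors among them. The gene that fell was Mef2c, a transcription factor also made by neurons, at -0.67 (SE 0.16, adjusted p = 0.0128). Cst3 and Sparc, at 1021 ± 43.6 and 242 ± 22.9 CPM in sham mice (SD, n = 3), were among those that rose. The part of other cells in the genes of this list was not tested.

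Partners of TREM2 and TYROBP rose in 11 of 12 cases, with a median log2 fold change of 1.74. The kinase Syk, which docks on the phosphorylated adaptor, rose by 1.90 (SE 0.14) and the phosphatase Ptpn6 by 3.01 (SE 0.19) on the log2 scale. Treml2, a neighbour of Trem2 in its gene cluster, rose by 4.11 (SE 0.33). Of the sheddases that cleave TREM2, Adam17 rose by 1.35 (SE 0.09), whereas Adam10 had a log2 fold change of 0.09 (SE 0.07, adjusted p = 0.377). Hcst, another adaptor, rose by 1.44 (SE 0.42, adjusted p = 0.0326). That call was lost under 5 alternatives, the fits without TBI replicate 3, sham replicate 1 or sham replicate 3 among them.

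Receptors of osteopontin and regulators of Gpnmb passed in 7 of 12 cases, all upwards, with a median of 0.82. Cd44 rose from 3.30 ± 1.21 to 30.5 ± 9.62 CPM (SD, n = 3; adjusted p = 1.29e-04), and the integrin chains Itgb5 and Itgb1 by 1.84 (SE 0.08) and 0.82 (SE 0.08) on the log2 scale. Mitf and Tfeb, transcription factors of lysosomal genes that act on Gpnmb, rose by 0.83 (SE 0.11) and 1.13 (SE 0.14). Reads of their relative Tfec numbered 4, 1 and 0 in the sham libraries but 72, 38 and 66 after injury. It passed (adjusted p = 0.0012), and no fold is given for it because all sham libraries lie under the limit of 6 counts. Runx1 rose by 3.29 (SE 0.30). The integrin chains Itgav, Itgb3, Itga4 and Itga9 did not pass, with log2 fold changes of -0.03, 0.27, -0.39 and 0.06. Neither did Tfe3, at 0.12.

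Around Axl, the ligands Gas6 and Pros1 rose by 0.61 (SE 0.08) and 1.87 (SE 0.14) on the log2 scale. Of the sister receptors, Tyro3 fell by 0.52 (SE 0.10, adjusted p = 0.0060), while Mertk did not pass, at 0.23 (SE 0.13, adjusted p = 0.226). Whether these differ from Axl itself was not tested. Among 12 lipid partners of Lpl and Fabp5, 11 could be tested and 8 rose, with a median log2 fold change of 1.08. Gpihbp1, Lmf1 and Fabp3 did not pass, with log2 fold changes of 0.19, 0.28 and -0.19. Fabp3 passed under 1 alternative. Plin2, the coat protein of lipid droplets, rose by 3.71 (SE 0.33), Apoc1 by 5.21 (SE 0.33), the cholesterol exporter Abca1 by 2.72 (SE 0.10) and Fabp7 by 2.41 (SE 0.21).

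Of 4 cystatin F targets 3 rose, Ctsc by 2.90 (SE 0.24), Ctsh by 3.20 (SE 0.20) and Lgmn by 1.72 (SE 0.15), while Ctsk had 2.10 (SE 0.71, adjusted p = 0.0552). Ctsk was at 0.57 without TBI replicate 3, and it passed without TBI replicate 1, without TBI replicate 2 and with no filter beyond 1 count. Itgb2, the chain that pairs with Itgax, rose by 3.27 (SE 0.23). Of the sister alpha chains, Itgal had 1.52 (SE 0.50, adjusted p = 0.0503) and passed under 8 alternatives, DESeq2's test among them, and Itgad had -1.06 (SE 0.48, adjusted p = 0.141). In the list of galectins with Lgals3bp, which encodes a galectin-3-binding protein and not a galectin, 4 of 5 rose. Among them were Lgals3bp by 4.24 (SE 0.24), Lgals9 by 3.10 (SE 0.23) and Lgals1 by 2.18 (SE 0.33).

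**Figure D3:**
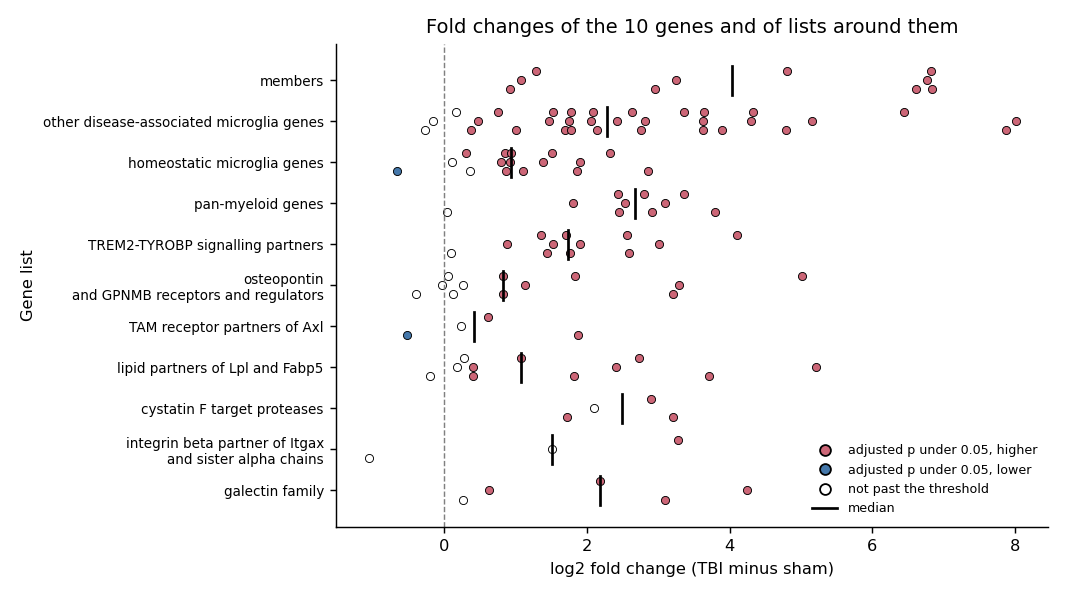
Log2 fold change between TBI and sham mice (3 each) of the 10 genes and of the genes tested in the lists around them, 1 point per gene, with a bar for each median. Red points passed an adjusted p of 0.05 upwards, blue points downwards, and white points did not pass. The median of the 10 genes, which were chosen with their differences known, is 4.03, and the blue points are Mef2c and Tyro3.

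Some markers of other cells rose along with the members, and others did not. All 7 monocyte markers rose, and the summed level went from 46.2 to 49.0 CPM in sham mice to 143 to 188 CPM after TBI. Plac8 was at 3.74 ± 2.14 CPM and Ccr2 at 5.19 ± 2.05 CPM (SD, n = 3) after TBI. Of 8 neutrophil markers 6 could be tested and 5 rose, with sums of 0.951 to 1.54 CPM in sham mice and 16.6 to 64.4 CPM after TBI. Ly6g and Camp did not pass the filter. All 5 fibroblast and meningeal markers rose, from 130 to 134 CPM to 182 to 754 CPM. Of 6 border-associated macrophage markers 3 rose, Mrc1, Pf4 and Ms4a7, the last to 20.3 ± 8.83 CPM (SD, n = 3). The others did not pass, with log2 fold changes of 0.09 for Cd163, -0.02 for Lyve1 and 1.41 for Cd209f. Of 6 T cell markers, Cd3e, Cd3d and Cd8a did not pass the filter. Cd3g rose from 0, 4 and 0 counts to 12, 16 and 26 counts (adjusted p = 0.0219), while Cd4 and Trac had log2 fold changes of -0.03 and -0.09. Of 6 dendritic cell markers 5 could be tested, of which 2 rose and 1 fell.

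Markers of the other brain cells moved too. Of 5 astrocyte markers 4 rose, Gfap, the filament of reactive astrocytes, by 3.72 (SE 0.17) on the log2 scale, and their summed level went from 3189 to 3507 CPM in sham mice to 6392 to 6722 CPM after TBI. Of 5 neuron markers 3 fell, from sums of 6264 to 6867 CPM to 3798 to 4912 CPM. In each of the oligodendrocyte, oligodendrocyte precursor and endothelial lists 3 markers rose. The part of all these cells in the levels of the 10 genes, Lpl, Axl and Fabp5 included, was not tested.

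By profile over the 6 libraries of 2018, the genes closest to Gpnmb were Cd22, Ly9, Lyz2, Ms4a4c and Zbp1. Likeness was the root mean square distance of log2 CPM from the sham mean, over 19535 other genes. Cd22 lay 0.284 log2 units away and Zbp1 0.443. The prior count of 2 in log2 CPM holds down the rise of genes near 0, and Cd22 had 1, 0 and 2 counts in sham mice, Zbp1 1, 2 and 4, and Ms4a4c 0 in all 3, so their nearness to Gpnmb and Spp1 depends on it. The genes closest to Spp1 were Lyz2 (0.333), Lgals3 (0.407), Ms4a4c (0.409), Ly9 (0.426) and Ifi204 (0.436). Lgals3 is the single member among these neighbours, and all points share 6 libraries.

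After zileuton 9 of the 10 genes overlapped with the levels of TBI_7d mice, and Spp1 was lower without overlap. All 10 log2 fold changes of zileuton against TBI_7d were negative, from -0.05 for Axl to -1.20 for Spp1, with a median of -0.22. No member passed an adjusted p of 0.05 by edgeR, and neither did any of the 17363 genes tested (0.00%), the smallest adjusted p being 0.186. At an unadjusted p under 0.05 there were 1186 genes (6.83%), 3.90% lower and 2.93% higher. Spp1 was the only member among them. DESeq2's test called 27 genes and limma on log2 values up to 4, with no member among them.

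**Figure D4:**
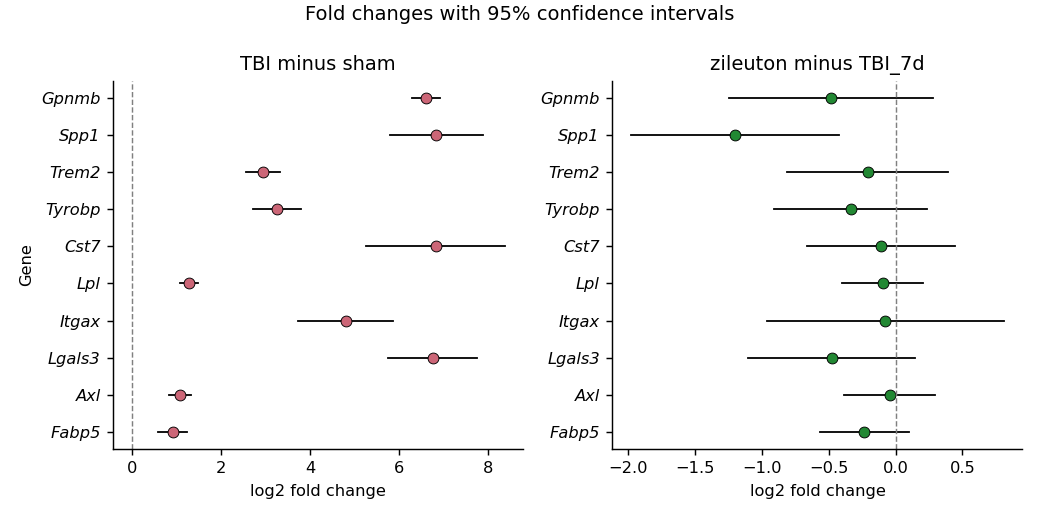
Log2 fold change (points) with its 95% confidence interval (lines) for each gene, TBI against sham on the left and zileuton against TBI_7d on the right, 3 mice per group and separate scales. On the left all intervals lie above 0, and on the right only that of Spp1 lies below 0.

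Spp1 was at 785, 982 and 1565 CPM in TBI_7d mice A, B and C and at 733, 345 and 370 CPM in zileuton mice A, B and C. Zileuton mouse A lay close below TBI_7d mouse A, so the groups were separate by a narrow gap. Groups did not overlap in that direction for 7.04% of the genes tested. The log2 fold change was -1.20 (SE 0.34), with an interval from -1.98 to -0.42. It was -0.87 to -1.63 when single mice were left out. Per 1000 pan-myeloid CPM Spp1 was 662, 644 and 851 in TBI_7d mice and 456, 287 and 342 in zileuton mice, 1.99-fold lower and again without overlap. Its share of the summed CPM of the 10 genes was 42.4% to 50.8% in TBI_7d mice and 26.4% to 38.3% after zileuton.

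Gpnmb was at 240, 572 and 636 CPM in TBI_7d mice and at 408, 369 and 258 CPM in zileuton mice. The groups overlapped through TBI_7d mouse A, the lowest of all 6. The log2 fold change of -0.48 (SE 0.33) had an interval from -1.25 to 0.28, and it was -0.81 without that mouse and -0.23 without TBI_7d mouse C. Lgals3 was at 41.8, 69.1 and 80.4 CPM against 60.6, 43.7 and 32.8 CPM, with -0.48 (SE 0.27, interval -1.10 to 0.14), and between -0.74 and -0.28 when single mice were left out.

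**Figure D5:**
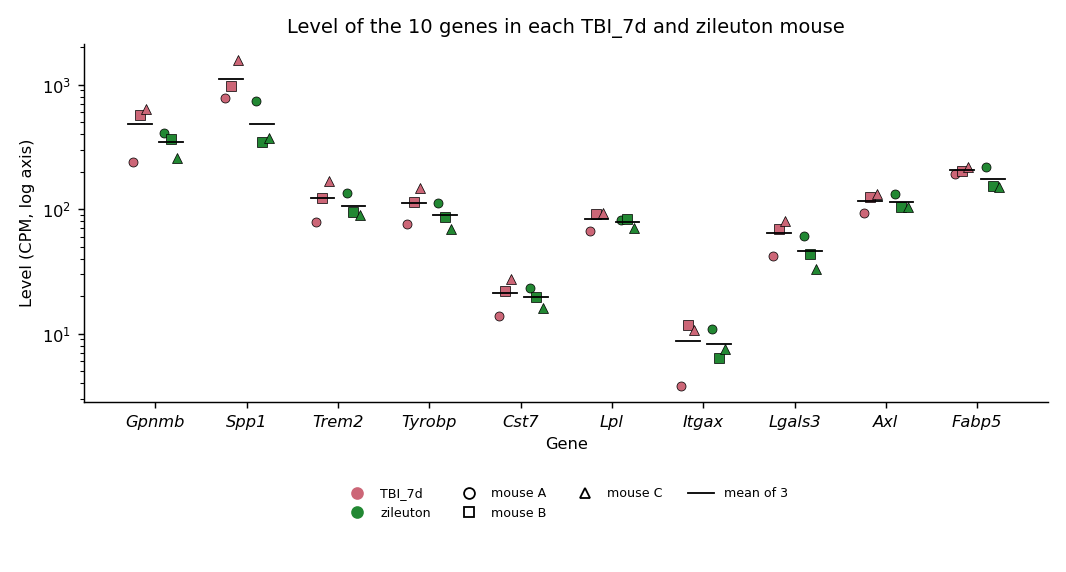
Level of each gene in CPM on a log axis in the 3 TBI_7d mice (red) and the 3 zileuton mice (green), with marker shapes for mice A, B and C and a bar for the mean of 3. TBI_7d mouse A is the lowest of its group in all 10 genes, and only for Spp1 do the groups not overlap.

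Trem2 was at 78.1, 123 and 167 CPM in TBI_7d mice and at 134, 95.5 and 89.1 CPM after zileuton, a log2 fold change of -0.21 (SE 0.26, interval -0.81 to 0.40). Tyrobp was at 75.3, 115 and 148 CPM against 112, 86.3 and 68.9 CPM, a log2 fold change of -0.34 (SE 0.25, interval -0.91 to 0.23). Zileuton mouse A was the highest of its group for both, and the groups overlapped. Both intervals reach further below 0 than above it and hold 0.

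Fabp5 was at 190, 204 and 220 CPM in TBI_7d mice and at 218, 153 and 150 CPM in zileuton mice, with -0.23 (SE 0.15, interval -0.57 to 0.10). Both zileuton mice B and C were below all TBI_7d mice, and mouse A was not. For Cst7, Lpl, Itgax and Axl the log2 fold changes were -0.11 (SE 0.24), -0.10 (SE 0.13), -0.08 (SE 0.39) and -0.05 (SE 0.15), with groups that overlapped. Of these 4, Lpl and Axl had the narrowest intervals, -0.40 to 0.20 and -0.39 to 0.30, and that of Itgax ran from -0.96 to 0.81.

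The levels of the members varied between mice along with the myeloid genes. TBI_7d mouse A was lowest and mouse C highest in 10 and 9 of the 10 members, and zileuton mouse A was the highest of its group in 9. The summed pan-myeloid level was 1185, 1525 and 1839 CPM in TBI_7d mice A, B and C and 1607, 1202 and 1082 CPM in zileuton mice A, B and C. TBI_7d mouse A also had the lowest sum of oligodendrocyte markers, 3876 CPM, against 6844 and 8645 CPM in the other TBI_7d mice. Per pan-myeloid CPM, Gpnmb was 308 ± 92.5 in TBI_7d mice and 266 ± 35.9 after zileuton (SD, n = 3), and Trem2 79.1 ± 12.6 and 81.8 ± 2.09. Apart from Spp1 no member was separate between the groups on that scale. The share of all genes separate on it was not counted. Without TBI_7d mouse A the median of the 10 log2 fold changes was -0.44, and without zileuton mouse A it was -0.42. Without TBI_7d mouse C, 4 of the 10 had a log2 fold change above 0, and the median was -0.06.

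Per length Spp1 led in TBI_7d mice with 1577 ± 514 TPM (SD, n = 3), followed by Tyrobp with 519 ± 148, Fabp5 with 453 ± 15.9 and Trem2 with 328 ± 104 TPM. After zileuton Spp1 had 726 ± 340 TPM and its range overlapped that of Tyrobp at 443 ± 115 TPM. The other members kept their ranks except for Cst7 and Lpl, which overlapped and changed places.

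In the lists around the members no gene passed after zileuton. Of the 32 other disease-associated microglia genes 30 had a negative log2 fold change, with a median of -0.21. The lowest was that of B2m, a subunit of class I antigen presentation, from 476 ± 95.5 to 326 ± 55.4 CPM (SD, n = 3; log2 fold change -0.54, adjusted p = 0.713 by edgeR). The pan-myeloid median was -0.21 and the homeostatic median -0.08, beside 0.0025 over all genes tested. The 12 receptors of osteopontin and regulators of Gpnmb had a median of 0.00059, and Itga9 stood at 0.33 (SE 0.12, adjusted p = 0.713). Tyro3 stood at 0.22 (SE 0.09), Ctsk at -0.39 (SE 0.18), Fabp7 at -0.55 (SE 0.17) and Lgals3bp at -0.56 (SE 0.21), with the same adjusted p for all 4.

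Of 7 monocyte markers 5 had a negative log2 fold change and none passed. Chil3 was at 2.06 ± 0.32 CPM in TBI_7d mice and 0.679 ± 0.50 CPM after zileuton, and Ly6c2 at 2.77 ± 1.17 and 1.29 ± 0.49 CPM (SD, n = 3), both at an adjusted p of 0.713 by edgeR. The summed level of the 7 markers overlapped, with 204 to 232 CPM in TBI_7d mice and 152 to 351 CPM in zileuton mice, the highest in zileuton mouse A. Fn1 made up most of that sum, at 192 ± 18.5 CPM in TBI_7d mice and 202 ± 103 CPM after zileuton (SD, n = 3). Neutrophil markers were low in both groups, 3.96 to 6.38 CPM and 1.39 to 7.20 CPM, and Ly6g was at 0 in all 6 libraries. The part of these cells in the level of Spp1 was not tested.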

How the data were processed

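RNA-seq was run on brain tissue of 12 mice in 4 groups of 3, sham and TBI in 2018, TBI_7d and zileuton in 2022. Per the labels, in the submitters' processing notes, reads were handled with HISAT2, featureCounts of Subread and DESeq2 on GRCm39, with no versions. For 2018 the authors deposited raw counts per gene and FPKM. For 2022 the authors deposited estimated counts, rounded here to whole numbers although raw counts had been planned for, and TPM. Whether counting used the strand is not given in the sources used here. Symbols came from a gene name table matched on Ensembl identifiers, 34808 of 35697 in 2018 and 52081 of 55637 in 2022. Promoters came from RefSeq on GRCm38.p6, and overlaps from GENCODE M21 on GRCm38. No coordinates were converted between builds.

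Counts were analysed with edgeR 4.0.16 in R 4.3.3 (TMM, filterByExpr, quasi-likelihood test, Benjamini-Hochberg adjustment over all genes tested, threshold 0.05) within each batch and never across batches. The standard error is the log2 fold change divided by the square root of F. Log2 CPM used a prior count of 2. Where labels do not name litters or cages, p-values measure only the spread between these libraries. A two-sided exact permutation test of 3 against 3 cannot go below 0.1. No libraries of a group were identical. Alternatives used limma 3.58.1 and DESeq2 1.42.0, and figures matplotlib 3.10.9. The tests were tried on simulated data.

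Members and lists were chosen with earlier results of these data known. Named were all members, any gene of a list of at most 12, in longer lists the 8 with the highest mean CPM and the largest called rise and fall, and the 5 nearest profiles to Gpnmb and to Spp1.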

Additional observations from a re-analysis of the deposited data

How the results depend on the processing

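In the comparison of TBI with sham mice all 10 members stayed higher and past the threshold under the other settings. These were every other filter, scaling and test in which they were tested, and each mouse left out. The scaling to pan-myeloid CPM, given further on, was an exception. Nothing is read from these passes, since the members were chosen with the difference known. When at least 10 counts were asked of every library 8 members were left, since Cst7 and Itgax did not pass that filter. The members' median log2 fold change of 4.03 was then 3.09. It was 2.94 with limma on log2(FPKM + 1), with and without a filter, and 3.37 with a pseudocount of 0.1, since a pseudocount holds down the fold of genes that are low in sham mice. Itgax moved most there, from 4.81 to 1.36 and 3.47. Leaving out single mice gave 3.71 to 4.24. Per pan-myeloid CPM, an alternative added after the values were seen, the median was 1.87, and 1.44 without Coro1a. Lpl, Axl and Fabp5 then turned to -0.83, -1.03 and -1.21, and without Coro1a to -1.26, -1.46 and -1.65. Over all genes 5479 were called, 3713 to 6017 under the other settings and 3848 to 4956 with single mice left out. The share of calls that were higher was 60.0%, 68.2% with library totals alone and 71.5% with limma on log2(FPKM + 1) without a filter. In the lists 83 to 90 genes were called, against 89. The call for Timp2 was lost under 9 settings and that for P2ry12 under 10.

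In the comparison of zileuton with TBI_7d mice 0 genes were called. DESeq2's test called 27, edgeR without a filter beyond 1 count 4, limma with a pseudocount of 1 and a filter 4, with 0.1 in its place 3, and limma with the length trend removed 1. No list gene and no member was among them. The median of the members, -0.22, ran from -0.44 to -0.06 when single mice were left out. With limma on log2(TPM + 1) or log2(TPM + 0.1), 4 members had a log2 fold change above 0. Spp1 stayed negative in all, between -0.87 and -1.63.

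The numbers shared by the groups did not pair the mice. Deviations of same-numbered sham and TBI mice correlated at -0.023, -0.094 and -0.033, and those of TBI_7d and zileuton mice by column number at -0.28, 0.063 and -0.28. With a replicate block 4337 genes were called in the first comparison and 0 in the second, and the members' medians were 4.01 and -0.21. The depth limits Cst7 and Itgax in sham mice most.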
